A study of Mus musculus with 6 samples.

Results

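Genes for the urea cycle and for the breakdown of amino acids were examined in liver. The 36 genes were chosen by symbol, as enzymes of these pathways, with earlier results of these data known. All 36 were found among the 23284 genes of the count files. Liver RNA came from mice of the C57BL6/J strain at 8 weeks of age, in 3 libraries from wild type (WT1 to WT3) and 3 from homozygous Trim24 -/- knockout mice (KO1 to KO3). TRIM24 is a nuclear receptor cofactor of the TIF1 family, and the series title links its loss to fat accumulation and carcinoma of the liver. How the knockout allele was made, the sex and feeding state of the mice, and whether each library came from its own animal are not given in the sources used here. P-values therefore measure the spread between these libraries, which may be partly technical.

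Amino acids that are not used for protein lose their nitrogen mainly in the liver. Aminotransferases and dehydrogenases pass the nitrogen to glutamate, ammonia and aspartate, and the urea cycle of the hepatocyte turns these into urea, while the carbon skeletons enter energy and glucose metabolism. Enzymes of the urea cycle and several that break down serine, histidine and glutamine are known to be richest in hepatocytes near the portal vein, whereas glutamine synthetase marks those around the central vein. Many of the genes are known to respond to glucagon, glucocorticoids and fasting.

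Reads counted in genes came to between 1495583 and 2872421 a library, 4.22% to 6.69% of all counted reads, and values are given as CPM, counts per 1e6 reads in tested genes after scaling by the TMM factor. A library with 0 counts of a gene could still hold up to 3 by counting error alone, which equals 1.04 to 2.10 CPM. Trim24 itself had 31, 45 and 44 counts in WT1 to WT3 and 3, 2 and 2 in KO1 to KO3. KO1 and KO3 stand apart by transcripts of pancreatic acinar cells, whose 18 genes reached a summed level of 1178 and 757 CPM there. The same sum was 14.7 CPM in KO2 and 12.5 to 41.9 CPM in wild type.

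Amino acid breakdown genes were mostly lower in the knockout. Of the 36 genes, 35 passed the filter on low counts, and 6 of these fell and 0 rose at an edgeR quasi-likelihood adjusted p under 0.05, where 2.65% of the 9180 genes tested fell and 3.08% rose (5.73% in either direction). At an unadjusted p under 0.05 there were 13 of the 35 (37.1%), beside 20.3% of all tested genes and 35.3% of the 705 tested genes with a mean of at least 200 CPM. The 6 were Gnmt, Agxt2l1, Amdhd1, Haao, Prodh and Tdo2, with folds of 0.539 to 0.645 of wild type. The fitted log2 change was below 0 in 34 of 35 genes, or in 19 of 35 when libraries were scaled to 6 hepatocyte markers. It was below 0 in 49.2% of all tested genes and in 63.4% of the 705 more abundant ones. The median log2 fold change was -0.32, a fold of 0.799, beside 0.01 for all tested genes and -0.12 for the 705 more abundant genes, of which 7.23% fell. Not all of the 35 genes are that abundant. Amdhd1, Prodh and Agxt2l1 had wild type means of 122, 184 and 124 CPM and lower knockout means. Of the 1444 tested genes with a mean of at least 100 CPM, 6.58% fell and 61.4% had a change below 0. Both cuts on abundance use the mean over wild type and knockout libraries together. By that mean Prodh is among the 1444 genes, whereas Amdhd1 and Agxt2l1 lie just under 100 CPM. In 15 of the 35 genes (42.9%) every knockout library lay below every wild type library, and in 0 every one lay above. Such separation with the knockout below was seen in 12.6% of all tested genes and 28.2% of the more abundant ones, and with the knockout above in 12.4% of all.

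**Figure D1:**
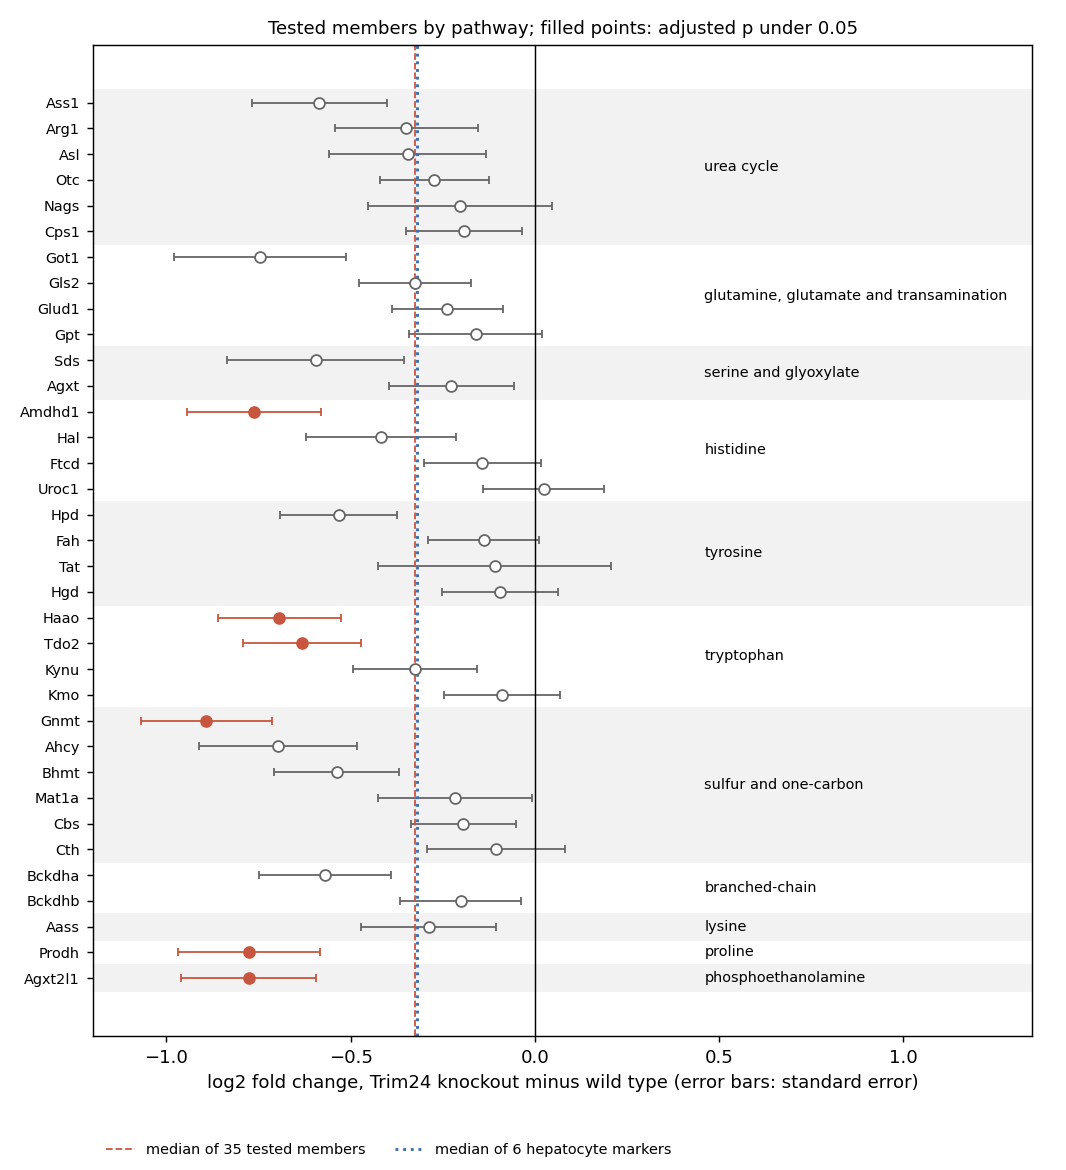
Log2 fold change of each tested gene (horizontal axis, knockout minus wild type, error bars are standard errors), grouped by pathway on the vertical axis. Filled points mark the 6 genes with an adjusted p under 0.05. Dashed and dotted lines mark the medians of the 35 tested genes (-0.32) and of 6 hepatocyte markers (-0.32), and Uroc1 is the single point above 0.

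Other measures of the tissue moved as well. The 6 hepatocyte markers had a median log2 fold change of -0.32, and 0 of them passed the threshold. Serpina1a, Apoa1, Ttr, Alb (albumin) and Apob had changes of -0.55, -0.38, -0.34, -0.30 and -0.19, and Fgb 0.04. The groups overlapped for Serpina1a, Alb and Fgb. Their summed level was 114550 to 129830 CPM in wild type and 83084 to 112030 CPM in knockout, lowest in KO2. Most of the sum is albumin, at 75346 to 88939 CPM in wild type and 50809 to 77978 CPM in knockout. The listed symbol Tf was not in the count files. With the libraries scaled to these 6 markers, an alternative chosen after seeing the data, the median of all tested genes shifted up by 0.29. The median of the 35 amino acid genes was then -0.02 and 0 of them passed the threshold (5 at an unadjusted p under 0.05). The 6 genes named above kept lower values under that scaling, with log2 fold changes of -0.35 for Tdo2 to -0.62 for Gnmt and adjusted p of 0.061 for Gnmt to 0.22 for Tdo2.

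Markers of cell types that share the liver with hepatocytes were also compared. Summed Kupffer cell and macrophage markers were 225 to 423 CPM in wild type and 373 to 671 CPM in knockout, and 3 of the 13 tested rose. Stellate cell markers summed to 505 to 553 and 666 to 786 CPM, with 2 of 7 tested higher. Endothelial markers summed to 507 to 533 and 399 to 509 CPM, with 1 of 9 higher and 2 lower. Cholangiocyte markers summed to 35.6 to 50.3 and 45.8 to 71.6 CPM, and 0 of 3 tested passed. Neutrophil markers summed to 4.16 to 5.59 and 13.0 to 22.3 CPM, and the single tested one rose. Red cell markers summed to 177 to 218 and 157 to 220 CPM, and neither tested one passed. Kidney also holds many of these enzymes, and 3 of 6 kidney tubule markers (Kap, Slc34a1 and Slc12a1) were at 0 in every library, while Lrp2 alone was tested and rose, for a sum of 0 to 2.10 and 10.9 to 12.2 CPM. The part of these other cells in the lower values was not tested. In whole liver, fewer hepatocytes and less RNA of a gene per hepatocyte cannot be told apart.

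**Figure D2:**
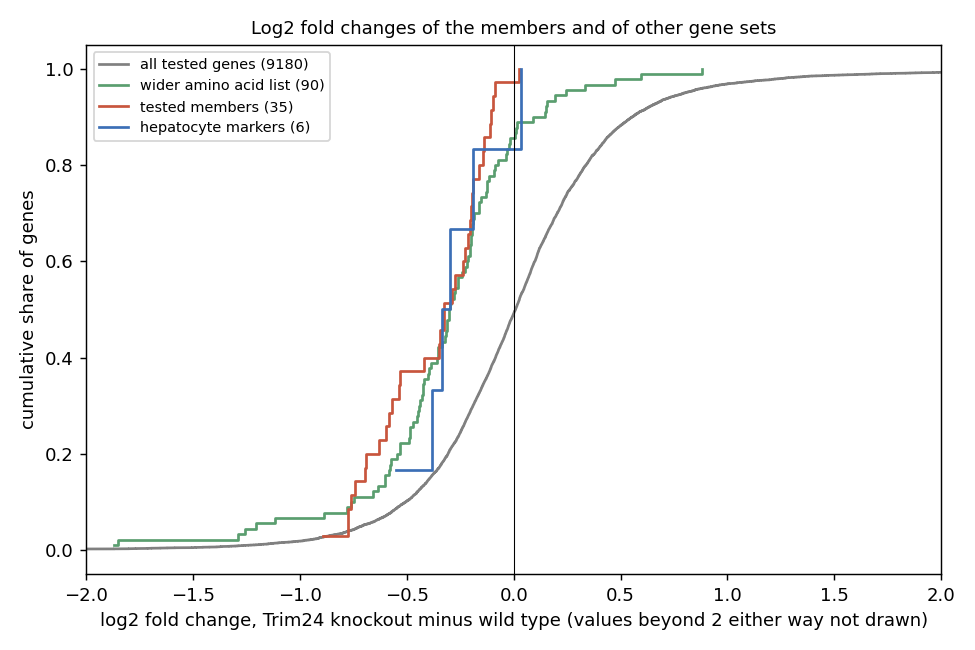
Cumulative share of genes (vertical axis) against the log2 fold change, knockout minus wild type (horizontal axis), for all tested genes, the 35 tested amino acid genes, 90 further genes of the same pathways and 6 hepatocyte markers. The 90 further genes include transporters and regulators. The 3 smaller sets lie to the left of all tested genes, with medians of -0.32, -0.30 and -0.32 beside 0.01.

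The genes differed widely in level. Per kb of exon, which allows levels to be compared between genes, the highest wild type means were 1450 ± 98 CPM per kb for Hpd, 1199 ± 600 for Tat, 1173 ± 128 for Cps1, 1140 ± 303 for Mat1a and 1021 ± 59 for Bhmt (SD, n = 3). Among these highest genes, no neighbours in the order differed beyond their spread. At the other end were Nags with 11.0 ± 1.1 CPM per kb and Sdsl with 2.77 ± 0.83. The genes that fell were spread over this range, from 876 ± 149 CPM per kb for Tdo2 to 27.7 ± 4.9 for Agxt2l1 in wild type.

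The urea cycle held no gene that passed the threshold among 6 tested, with a median log2 fold change of -0.31. Cps1, whose product carbamoyl phosphate opens the cycle in mitochondria, had the highest CPM of all 36 genes, not scaled to length, at 5768, 6603 and 7179 CPM in WT1 to WT3 and 6410, 4928 and 5772 CPM in KO1 to KO3. The groups overlapped, and its log2 fold change was -0.19 (SE 0.16, edgeR adjusted p = 0.54). Nags makes the activator that Cps1 needs, and ranged from 19.8 to 24.4 CPM in wild type and from 14.3 to 23.9 CPM in knockout. Otc, which joins carbamoyl phosphate to ornithine, was at 656, 671 and 666 CPM in wild type and 586, 480 and 582 CPM in knockout. All knockout values of Otc lay below the narrow wild type range, with a log2 fold change of -0.27 (SE 0.15) that did not pass (edgeR adjusted p = 0.33).

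The next 3 steps run in the cytosol. Ass1, which joins citrulline and aspartate, was at 1361, 1561 and 1917 CPM in wild type and 1329, 946 and 954 CPM in knockout. KO1 was just under WT1 and the other knockout libraries were well below, for a log2 fold change of -0.58 (SE 0.18, edgeR adjusted p = 0.081). The reads of Ass1 can be shared with Gm5424, a copy that is 99.5% identical over 1240 bases in GENCODE M21, and Gm5424 was at 330 to 542 CPM in wild type and 244 to 343 CPM in knockout. Asl, which splits argininosuccinate, ranged from 171 to 259 CPM in wild type and 141 to 237 CPM in knockout, and Arg1, the arginase that releases urea, from 850 to 1449 and 821 to 1067 CPM. Neither passed (edgeR adjusted p = 0.40 and 0.34). Within each library the ratio of Ass1 to Cps1, which does not depend on scaling, was 0.236, 0.236 and 0.267 in wild type and 0.207, 0.192 and 0.165 in knockout. That of Otc to Cps1 was 0.0928 to 0.114 and 0.0915 to 0.101, and overlapped. These and the ratios below were chosen after the values were seen and are given without a test. Each sets a gene that was called, or whose groups did not overlap, over a gene that was neither. Lower ratios in knockout are therefore partly fixed by that choice.

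Enzymes that release or pass on nitrogen ahead of the cycle had a median log2 fold change of -0.28 over 4 tested genes, and 0 passed the threshold. Got1, the cytosolic aspartate aminotransferase, was at 531, 1124 and 891 CPM in wild type and 600, 493 and 427 CPM in knockout. KO1 was above WT1, so the groups overlapped, although the log2 fold change was -0.75 (SE 0.23, edgeR adjusted p = 0.081). Gls2, the liver glutaminase, was at 305, 290 and 347 CPM in wild type and 268, 259 and 226 CPM in knockout. Glud1, glutamate dehydrogenase, was at 674, 715 and 647 CPM in wild type and 643, 508 and 576 CPM in knockout. For both, the groups did not overlap, but KO1 was close to the lowest wild type library and neither passed (edgeR adjusted p = 0.25 and 0.41). Gpt, the alanine aminotransferase, ranged from 151 to 214 CPM and from 128 to 175 CPM. A copy of Glud1 is 97.6% identical over 656 bases in GENCODE M21, so that its count is uncertain to that extent.

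Of the serine and glyoxylate genes, Sds, the serine dehydratase, was at 77.5, 166 and 155 CPM in wild type and 100, 92.8 and 72.7 CPM in knockout. WT1 was within the knockout range. The log2 fold change of Sds was -0.60 (SE 0.24, edgeR adjusted p = 0.18), and 28.0% of its exon bases overlap Plbd2 on the opposite strand, whose level was 38.0 to 42.3 CPM in wild type and 31.6 to 44.5 CPM in knockout. Agxt, which detoxifies glyoxylate in peroxisomes, was at 355, 407 and 386 CPM in wild type and 320, 266 and 393 CPM in knockout, with overlap. Sdsl, a relative of Sds, had 8, 5 and 6 counts in wild type and 3, 8 and 8 in knockout, and was too low to be tested.

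Of 4 histidine genes, 1 passed the threshold, and differences between the steps were not tested. Amdhd1, the imidazolonepropionase that opens the ring, fell from 125, 120 and 120 CPM in wild type to 76.8, 51.6 and 85.2 CPM in knockout. The wild type libraries were nearly equal and all knockout libraries lay well below them, lowest in KO2 with 95 counts. The log2 fold change of Amdhd1 was -0.76 (SE 0.18, edgeR adjusted p = 0.026). Hal, the ammonia-lyase of the first step, is the neighbour of Amdhd1 on chromosome 10 in RefSeq, and was at 238, 201 and 195 CPM in wild type and 181, 106 and 187 CPM in knockout. The groups did not overlap for Hal, again with KO2 lowest, and it did not pass (log2 fold change -0.42, SE 0.20, edgeR adjusted p = 0.27), except with KO2 as the only knockout library (0.017).

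The step between them, urocanate hydratase (Uroc1), was at 322, 279 and 343 CPM in wild type and 368, 325 and 269 CPM in knockout. It was the only gene of the 35 tested with a fitted change above 0, at 0.02 (SE 0.16), and it overlapped fully. Ftcd, which passes the formimino group of histidine to folate, ranged from 181 to 238 CPM and from 175 to 209 CPM. The ratio of Amdhd1 to Uroc1 within a library was 0.388, 0.429 and 0.350 in wild type and 0.209, 0.159 and 0.317 in knockout, without overlap.

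Tyrosine breakdown held no gene that passed, with a median log2 fold change of -0.12 over 4 tested genes. Tat, the tyrosine aminotransferase and a classical glucocorticoid target, was at 1293, 4090 and 3158 CPM in wild type and 3214, 2800 and 1909 CPM in knockout. WT1 was far below both other wild type libraries, and the spread within wild type exceeded the distance between the group means (log2 fold change -0.11, SE 0.32, edgeR adjusted p = 0.89). Hpd, the next enzyme, was at 1880, 2141 and 2088 CPM in wild type and 1669, 1275 and 1280 CPM in knockout. Its groups did not overlap, and its log2 fold change of -0.53 (SE 0.16) narrowly missed the threshold (edgeR adjusted p = 0.067). Hgd and Fah, the dioxygenase and the hydrolase at the end of the pathway, had changes of -0.10 (SE 0.16) and -0.14 (SE 0.15), with overlapping groups.

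Of the 4 genes of the set in the kynurenine pathway from tryptophan towards NAD, 2 passed the threshold. Other genes of this pathway are among the further genes below. Tdo2, the dioxygenase that opens the tryptophan ring and sets the rate of the pathway in liver, fell from 2607, 3583 and 2831 CPM in wild type to 2058, 1844 and 1919 CPM in knockout. The knockout libraries were close together and all below the lowest wild type library (log2 fold change -0.63, SE 0.16, edgeR adjusted p = 0.035). Haao, the dioxygenase near the end of the pathway, fell from 319, 274 and 336 CPM to 202, 155 and 216 CPM. The groups of Haao were clearly apart, with KO2 lowest (log2 fold change -0.69, SE 0.17, edgeR adjusted p = 0.028).

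Kmo and Kynu, which act between Tdo2 and Haao, did not pass. Kmo, the mitochondrial hydroxylase of kynurenine, was at 865, 889 and 760 CPM in wild type and 856, 665 and 842 CPM in knockout, and Kynu, the kynureninase, ranged from 390 to 537 CPM and from 323 to 416 CPM. Both overlapped (log2 fold change -0.09 and -0.32, edgeR adjusted p = 0.81 and 0.31). The ratio of Haao to Kmo was 0.368, 0.308 and 0.442 in wild type and 0.236, 0.233 and 0.256 in knockout, and that of Tdo2 to Kmo was 3.01 to 4.03 and 2.28 to 2.77. Neither ratio overlapped between the groups, whereas that of Haao to Kynu did (0.510 to 0.861 and 0.373 to 0.628).

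Among the genes for methionine and the other sulfur amino acids, Gnmt showed the lowest fitted change of all 35 tested genes. Its enzyme transfers a methyl group from S-adenosylmethionine to glycine and is abundant in hepatocytes. Gnmt fell from 376, 489 and 531 CPM in wild type to 298, 224 and 232 CPM in knockout. The highest knockout library was below the lowest wild type library, and the log2 fold change was -0.89 (SE 0.18, edgeR adjusted p = 0.010). Ahcy, which removes the S-adenosylhomocysteine that methyl transfer leaves, was at 944, 1193 and 1273 CPM in wild type and 968, 615 and 524 CPM in knockout. KO1 lay within the wild type range, and the change of -0.70 (SE 0.21) did not pass (edgeR adjusted p = 0.076).

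Bhmt, which returns homocysteine to methionine with betaine, was at 2644, 2610 and 2374 CPM in wild type and 1762, 1388 and 2104 CPM in knockout. The groups of Bhmt did not overlap (log2 fold change -0.54, SE 0.17, edgeR adjusted p = 0.083). For Bhmt and Ahcy, copies 98.9% to 99.7% identical over 1224 to 2083 bases are annotated in GENCODE M21, which leaves their counts uncertain. Mat1a, which makes S-adenosylmethionine, was at 2968, 5059 and 3833 CPM in wild type and 3984, 3636 and 2590 CPM in knockout, and overlapped. Of the transsulfuration enzymes, Cbs ranged narrowly from 263 to 288 CPM in wild type and 231 to 251 CPM in knockout, without overlap but with a log2 change of only -0.19 (SE 0.14, edgeR adjusted p = 0.48), and Cth from 242 to 399 and 266 to 329 CPM. The ratio of Gnmt to Mat1a was 0.127, 0.0966 and 0.139 in wild type and 0.0748, 0.0615 and 0.0897 in knockout, without overlap, while that of Gnmt to Ahcy overlapped.

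Branched-chain ketoacid dehydrogenase, proline, lysine and phosphoethanolamine enzymes complete the set. Bckdha, the alpha subunit of the dehydrogenase, was at 130, 125 and 136 CPM in wild type and 103, 64.0 and 95.7 CPM in knockout, without overlap (log2 fold change -0.57, SE 0.18, edgeR adjusted p = 0.083). The beta subunit gene Bckdhb ranged from 79.6 to 110 CPM and from 76.5 to 89.8 CPM. Prodh, the proline dehydrogenase of mitochondria, fell from 175, 151 and 228 CPM to 129, 109 and 86.6 CPM. All knockout libraries of Prodh were lower than the wild type ones (log2 fold change -0.78, SE 0.19, edgeR adjusted p = 0.032). The ratio of Prodh to Aldh4a1, which takes the next step, was 0.538 to 0.815 in wild type and 0.381 to 0.519 in knockout.

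Agxt2l1, now named Etnppl, encodes a relative of the aminotransferases that breaks down phosphoethanolamine. It fell from 102, 146 and 125 CPM to 78.6, 82.5 and 58.4 CPM, without overlap (log2 fold change -0.78, SE 0.18, edgeR adjusted p = 0.025). Aass, the first enzyme of lysine breakdown, was at 511, 757 and 597 CPM in wild type and 586, 524 and 419 CPM in knockout, and overlapped (edgeR adjusted p = 0.41).

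**Figure D3:**
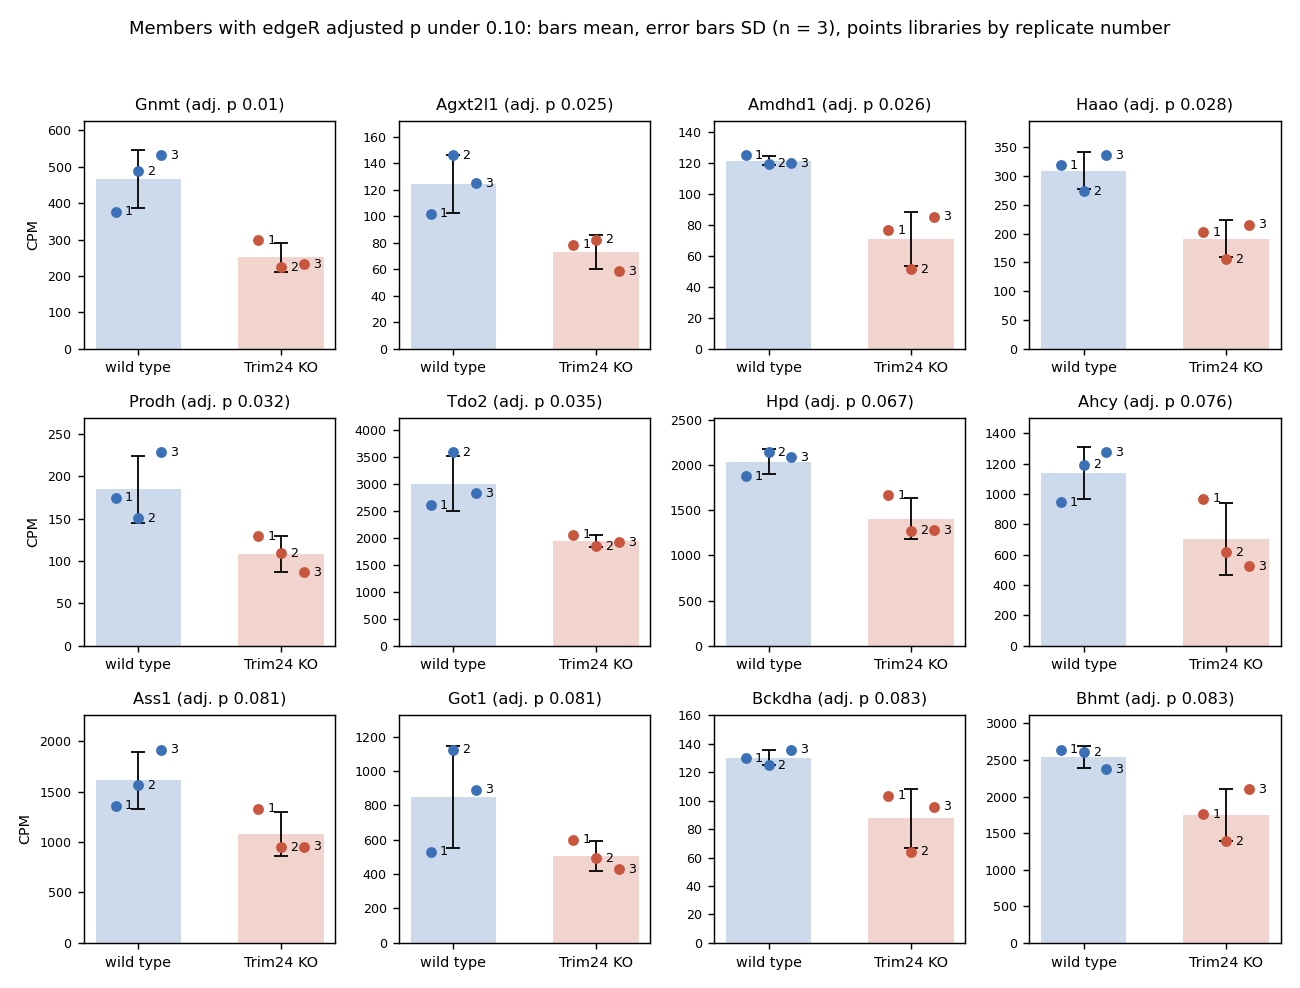
CPM (vertical axes, starting at 0) of the 12 genes with an edgeR adjusted p under 0.10, in wild type and Trim24 knockout (KO) liver. Bars are means, error bars SD (n = 3), and points libraries marked by replicate number. Knockout points lie below all wild type points except in Got1 and Ahcy, where KO1 is above WT1.

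Libraries of the same genotype differed in a way that several genes shared. WT1 was the lowest wild type library in 22 of the 35 tested genes, and in 8 of them (Asl, Arg1, Got1, Sds, Tat, Mat1a, Gnmt and Cth) it was under 0.75 of the mean of WT2 and WT3, as were 15.9% of all tested genes. Among knockout libraries, KO1 was the highest in 23 genes and the lowest in 1, while KO2 was the lowest in 19 and KO3 in 15. Set against the wild type mean, the 35 genes had a median log2 difference of -0.14, 0.06 and 0.07 in WT1 to WT3 and -0.22, -0.45 and -0.47 in KO1 to KO3. The hepatocyte markers had 0.10, -0.11 and -0.02, and -0.23, -0.59 and -0.15, so that KO3 was low in the amino acid genes but nearer to wild type in these markers. In the urea cycle KO1 (-0.12) was above WT1 (-0.21). Over the 4 tryptophan genes of the set, 2 of which were called, all knockout libraries (-0.53, -0.52 and -0.44) were below all wild type libraries (-0.11 to 0.16). The 8 tryptophan genes among the further genes of the same pathways did not share this, with a median log2 fold change of 0.0088. Of these 8, 5 had a fitted change above 0 and 3 below, and 1 fell.

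**Figure D4:**
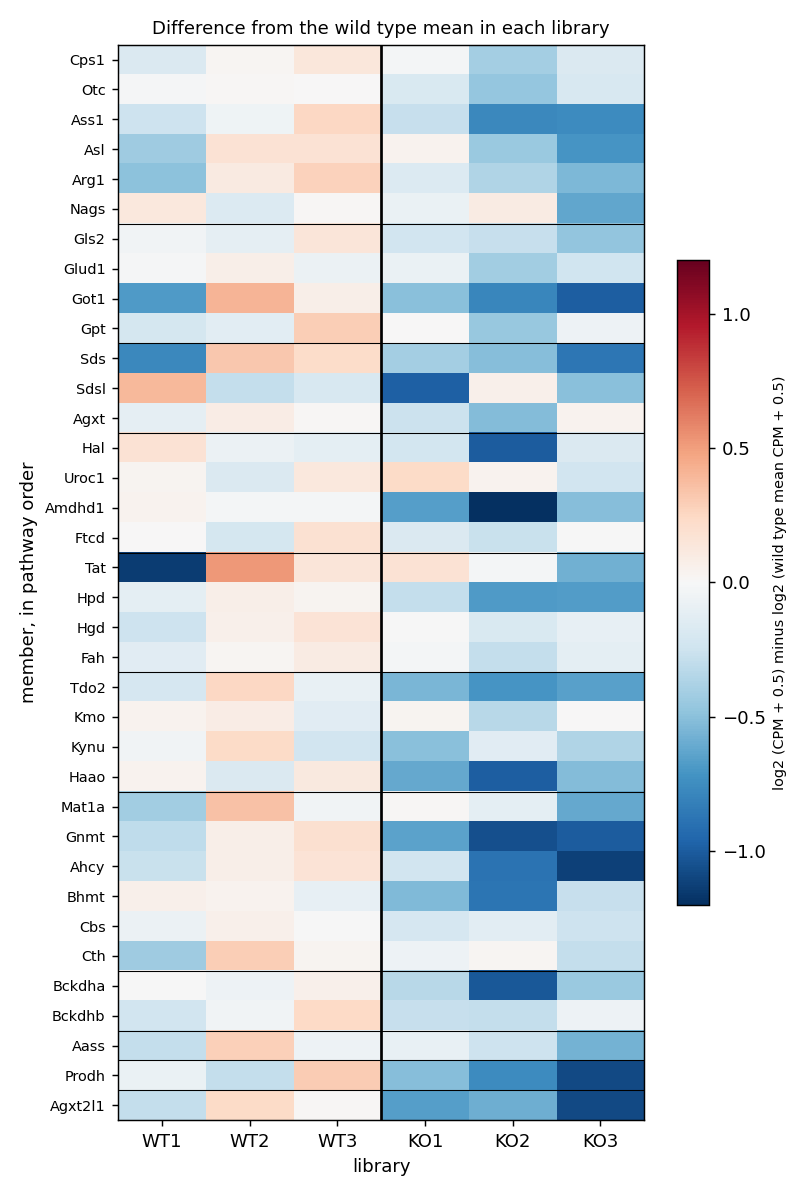
Log2 difference of each of the 36 genes (rows, in pathway order) from its wild type mean CPM in each library (columns), with 0.5 CPM added to both. Blue is below and red above the wild type mean. Tat is lowest in WT1, and KO1 is paler than KO2 and KO3 in most rows.

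Promoters of the 4 genes with the smallest adjusted p are shown because these genes moved in the same direction. Each is the 250 bases before a RefSeq transcription start on GRCm38.p6, written 5′ to 3′ along the gene. They are all in lower case, as none of the 4 holds a match to the motifs listed below.
Gnmt, chr17:46729166-46729415, minus strand: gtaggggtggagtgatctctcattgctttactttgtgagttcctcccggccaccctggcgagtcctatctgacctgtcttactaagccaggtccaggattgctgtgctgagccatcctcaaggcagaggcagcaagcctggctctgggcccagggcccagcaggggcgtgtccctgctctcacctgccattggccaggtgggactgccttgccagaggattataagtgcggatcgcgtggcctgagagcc
Agxt2l1, chr3:130617198-130617447, plus strand: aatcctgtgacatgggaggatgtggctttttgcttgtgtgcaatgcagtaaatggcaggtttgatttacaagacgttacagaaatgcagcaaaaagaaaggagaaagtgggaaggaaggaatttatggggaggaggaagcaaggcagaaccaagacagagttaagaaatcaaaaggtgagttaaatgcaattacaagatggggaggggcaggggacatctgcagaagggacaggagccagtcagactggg
Amdhd1, chr10:93540034-93540283, minus strand: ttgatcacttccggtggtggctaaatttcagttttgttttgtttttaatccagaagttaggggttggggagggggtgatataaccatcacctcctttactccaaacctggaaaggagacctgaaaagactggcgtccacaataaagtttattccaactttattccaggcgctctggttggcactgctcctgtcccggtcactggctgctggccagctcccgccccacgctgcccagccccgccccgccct
Haao, chr17:83846791-83847040, minus strand: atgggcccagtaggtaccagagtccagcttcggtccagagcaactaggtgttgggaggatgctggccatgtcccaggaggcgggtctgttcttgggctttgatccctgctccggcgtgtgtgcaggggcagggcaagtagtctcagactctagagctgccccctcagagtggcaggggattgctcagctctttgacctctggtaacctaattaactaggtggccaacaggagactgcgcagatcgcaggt

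RefSeq windows were found for 26 of the 36 genes, with 2 windows each for Bckdhb and Agxt2l1. A gene was counted when any of its windows held a match. The share over all genes is by window, so it is not quite the same measure. On both strands and over 250 bases, the glucocorticoid receptor motif ACANNNTGT was present in 4 of the 26 genes (Bckdhb, Bhmt, Hal and Tdo2) and in 5.83% of all 32851 windows, and TATAAA in 4 genes (Ftcd, Hal, Hgd and Tdo2) and 12.4% of windows. The C/EBP motif TTGCNNAA was present in 3 genes and 9.56% of windows, the cyclic AMP element core TGACG in 2 genes and 17.8% of windows, and the HNF4A motif CAAAGTCCA in 0 genes and 0.384% of windows. The match in Bckdhb lies in only 1 of its windows. In Hal the matches to ACANNNTGT and TATAAA share 1 base. A match describes the letters of the window, not a bound site.

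Further genes of the same pathways were compared in the same way, together with amino acid transporters and regulators. Of 92 enzymes, carriers, transporters and regulators, 90 were tested, and 9 fell (10%, beside 2.65% of all tested genes and 7.23% of the 705 more abundant ones) and 0 rose, with a median log2 fold change of -0.30. At an unadjusted p under 0.05 there were 33 of the 90 (36.7%), beside 20.3% and 35.3%. Glutamine synthetase, Glul, which captures leftover ammonia in pericentral hepatocytes, fell from 1324 ± 159 to 367 ± 81 CPM (SD, n = 3, log2 fold change -1.85, SE 0.19, edgeR adjusted p = 8e-05). Ornithine aminotransferase, Oat, fell from 763 ± 78 to 312 ± 29 CPM and the glutamate transporter gene Slc1a2 from 364 ± 75 to 100 ± 34 CPM (edgeR adjusted p = 0.000345 and 0.000585). These 3 genes are known for pericentral expression, and of 16 tested pericentral markers, a list that holds all 3, 7 fell and 1 rose. Of 7 tested genes outside the 36 that were listed as periportal, 0 fell and 1 rose. Whether each of the 7 is periportal was not tested here. That list leaves out the periportal enzymes among the 36. Of these, the 6 urea cycle genes, Sds, Hal and Gls2 all had fitted changes below 0, and none passed. Agxt2l1, also listed as periportal under its current name Etnppl, is counted among the 36 and fell. A difference between the zones was not tested.

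Cdo1 and Csad, which turn cysteine towards taurine, fell from 780 ± 51 to 327 ± 64 CPM and from 130 ± 65 to 56.6 ± 13.2 CPM (SD, n = 3, edgeR adjusted p = 0.00073 and 0.026). Glul, Oat, Slc1a2 and Cdo1 passed in all 17 alternative fits, the scaling to hepatocyte markers included. Qdpr, which regenerates the cofactor of phenylalanine hydroxylase, fell from 87.6 ± 7.1 to 57.9 ± 2.9 CPM, Afmid, the kynurenine formamidase between Tdo2 and Kmo, from 104 ± 28 to 60.8 ± 8.5 CPM, and Mccc2, a subunit of the leucine pathway, from 50.2 ± 9.9 to 29.4 ± 1.4 CPM. The transcription factor gene Cebpa fell from 170 ± 16 to 114 ± 13 CPM (edgeR adjusted p = 0.044). The calls of Qdpr, Afmid, Mccc2 and Cebpa were lost in 9, 7, 10 and 9 of the 17 fits and that of Csad in 4. Mccc2 did not pass with the replicate number as a block (edgeR adjusted p = 0.051).

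Acmsd, which draws the product of Haao away from NAD, was the highest of the 90 in fitted change. It was at 33.5, 61.5 and 48.7 CPM in wild type and 52.0, 113 and 97.8 CPM in knockout, with KO1 inside the wild type range (log2 fold change 0.88, SE 0.27, edgeR adjusted p = 0.074). It passed in 8 of the 17 alternative fits, with the replicate number as a block among them (edgeR adjusted p = 0.010). The glucocorticoid receptor gene Nr3c1, the glucagon receptor gene Gcgr and Hnf4a, regulators of these pathways, were at 84.0 to 108, 75.4 to 80.8 and 728 to 997 CPM in wild type and 72.5 to 94.6, 55.4 to 66.9 and 562 to 795 CPM in knockout, and none of the 3 passed.

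All 6 calls depended on which libraries were included. Without WT3, none of the 6 genes passed (edgeR adjusted p = 0.068 for Gnmt to 0.17 for Prodh), and the calls over all genes dropped to 127 higher and 95 lower. Without WT1 the calls of Amdhd1, Haao and Prodh were lost (edgeR adjusted p = 0.082, 0.086 and 0.073) while Got1 and Sds passed, and without WT2 those of Agxt2l1, Amdhd1 and Tdo2 (0.11, 0.075 and 0.15). Without KO2 those of Amdhd1, Haao, Prodh and Tdo2 were lost (0.088, 0.11, 0.094 and 0.095), and without KO3 those of Agxt2l1, Prodh and Tdo2 (0.082, 0.10 and 0.089). Without KO1, 11 genes fell, the 6 and Ahcy, Ass1, Bckdha, Got1 and Hpd.

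With KO2 as the only knockout library, which leaves out both libraries with pancreatic transcripts and assumes that the lone library varies like the others, 7 genes fell. Gnmt and Amdhd1, with log2 fold changes of -1.06 and -1.24, and Haao were among them, together with Ahcy, Bckdha, Bhmt and Hal. Tdo2, Prodh and Agxt2l1 had changes of -0.71, -0.76 and -0.60 and did not pass there (edgeR adjusted p = 0.077, 0.10 and 0.18). DESeq2 called 11 genes lower, the 6 and Ahcy, Ass1, Bhmt, Got1 and Hpd.

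**Figure D5:**
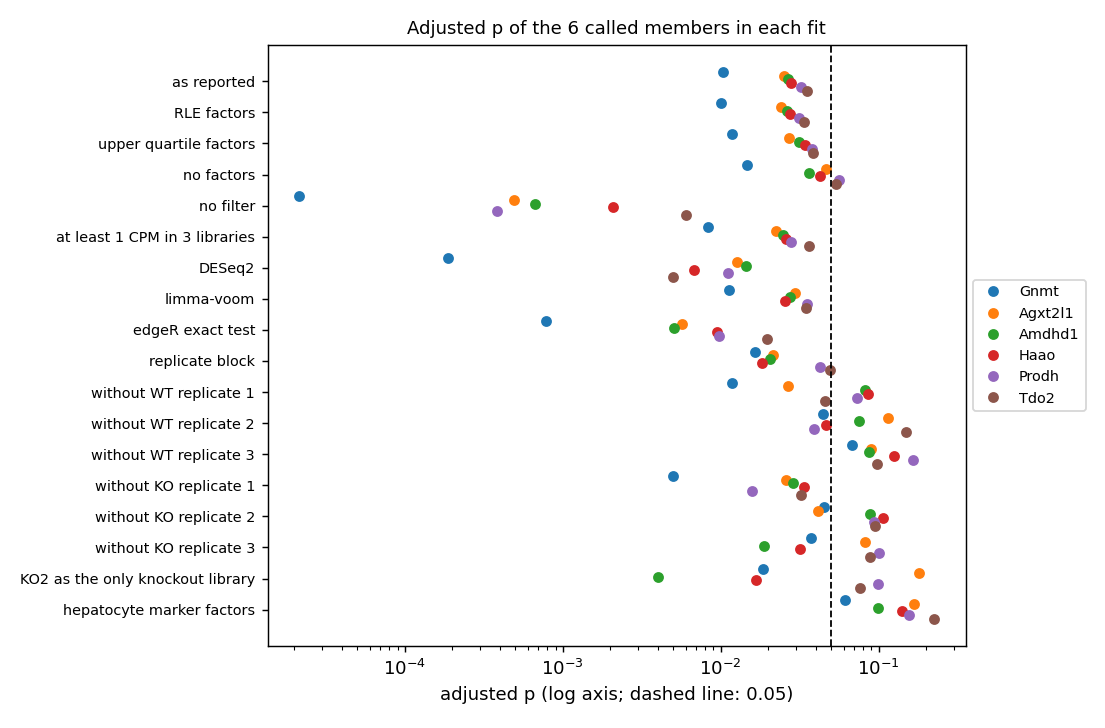
Adjusted p (horizontal log axis) of the 6 genes that fell, in the reported fit and each of 17 alternatives (vertical axis); the dashed line marks 0.05. All 6 lie right of the line without WT3 and with hepatocyte marker factors, and Gnmt lies left of it in the other fits.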

How the data were processed

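Raw read counts per gene symbol were deposited by the authors, 1 file for each of 6 liver libraries, with no normalization. Per the submitters' processing notes, mm9, HTSeq, TopHat 1.4.1 and edgeR were used, with their roles and the strand setting not given in the sources used here. Each file ended with 5 totals of the counter, which were left out; reads in no gene were 93.3% to 95.8% of those counted.

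Genes with enough counts (filterByExpr, minimum 10) entered a quasi-likelihood fit in edgeR 4.0.16 (R 4.3.3), in which genotype was the only term and TMM gave the factors. P-values were adjusted by Benjamini-Hochberg over all 9180 tested genes, and a gene was called at 0.05. The standard error is the log2 change over the square root of F. The test was checked on simulated counts. DESeq2 1.42.0, limma-voom (limma 3.58.1), the edgeR exact test, other factors and filters, a replicate block, left-out libraries and, after seeing the data, hepatocyte marker factors were alternatives.

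The 36 genes, the further lists and the tests were chosen with earlier results of these data known. Values in every library were given for called genes, genes whose groups do not overlap and the gene of highest CPM in each pathway, and, of the further genes, up to 4 called a group. Exon lengths, overlaps and near-identical transcripts (at least 95% over 200 bases) came from GENCODE M21 and promoters from RefSeq, both on GRCm38; since the notes name mm9, no gene coordinates were joined to counts. The result for 1 promoter motif is not reported here.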

Additional observations from a re-analysis of the deposited data

How the results depend on the processing

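Among the 36 genes, the number that fell was 6, with 0 to 11 when a library was left out, 13 with no filter on low counts, 11 with DESeq2, 12 at a threshold of 0.10 and 0 with hepatocyte marker factors. It was 6 or 7, or 4 without factors, in the other fits, and the number that rose was 0 in every fit. Over all genes, 283 rose and 243 fell. Leaving out a library gave 127 to 409 higher and 95 to 363 lower, no filter 576 and 509, the threshold of 0.10 445 and 437, and hepatocyte marker factors 873 and 91. Of the 90 further genes, 9 fell and 0 rose. Leaving out a library gave 4 to 18 lower and 0 to 1 higher, no factors 5 and 1, no filter 19 and 1, the edgeR exact test 15 and 1, the threshold of 0.10 18 and 1, and hepatocyte marker factors 5 and 2. With DESeq2 and with KO2 as the only knockout library 1 of them rose.

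The replicate numbers did not pair the libraries: the deviations of same-numbered libraries from their group means correlated at -0.07, 0.08 and 0.03 across genes. With the number as a block the same 6 genes fell, and 1 further gene, Acmsd, rose.

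Fitted changes that turned sign lay between -0.091 for Uroc1 and 0.24 for Tat after the turn. With hepatocyte marker factors they were 0.084 for Cps1, 0.010 for Otc, 0.10 for Nags, 0.047 for Glud1, 0.11 for Gpt, 0.047 for Agxt, 0.14 for Ftcd, 0.16 for Tat, 0.18 for Hgd, 0.14 for Fah, 0.19 for Kmo, 0.068 for Mat1a, 0.10 for Cbs, 0.18 for Cth and 0.076 for Bckdhb. Without factors Kmo was at 0.00092, and with limma-voom Tat at 0.013. With KO2 as the only knockout library Nags was at 0.10 and Cth at 0.015. With a library left out the changes ranged from -0.46 to 0.24 for Tat, -0.16 to 0.025 for Kmo, -0.091 to 0.14 for Uroc1, -0.28 to 0.065 for Cth, -0.26 to 0.0071 for Gpt and -0.37 to 0.014 for Nags. Why these changed was not tested. With counts of 95 or more in every library, all of the 6 genes that fell were far above the limit of 3 counts.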
